A study of Homo sapiens with 24 samples.

Results

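Apoptosis is carried out by caspases, proteases that wait in the cell as inactive precursors. The initiator caspases CASP8 and CASP9 are switched on by death receptors and by the apoptosome, the APAF1 complex that forms when cytochrome c leaves the mitochondria, and CASP2 is an initiator that responds to stress and DNA damage. Effector caspases such as CASP6 then cut structural proteins and enzymes, among them the DNA repair enzyme PARP1, while XIAP blocks active caspases and BIRC5 (survivin) belongs to the same inhibitor family and is also a subunit of the complex that steers chromosomes in mitosis. Because caspases are switched on by cleavage, their mRNA level is not a measure of their activity. The mRNA of these 8 genes, CASP2, CASP6, CASP8, CASP9, APAF1, PARP1, XIAP and BIRC5, is described here. They were taken by symbol from the 14585 genes of the count table, and each of the 8 had a row and passed the filter on low counts in both cell lines.

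The study treated 2 human cancer lines, A549 from a lung carcinoma and Huh7 from a hepatocellular carcinoma, with an extract of Pulsatilla chinensis, Bupleurum chinense or Polyporus umbellatus, or left them as control. Both lines are labelled WT for genotype, and each of the 8 groups had 3 RNA sequencing libraries, 24 in all. The paper describes A549 as wild type for p53 and Huh7 as p53 mutant, so the WT label does not describe p53 in Huh7. The extracts were crude ethanol extracts. The dose and time of treatment for sequencing and the vehicle of the controls are not given in the sources used here, so a difference between extracts is a difference between these treatments as applied.

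The libraries held 6803648 to 24345364 counts, with a median of 10515131, and the counts of the 8 genes ran from 79 to 6903 per library. Hepatocyte markers summed to 12500 to 23000 CPM (counts scaled to a common library size) in the Huh7 libraries and to 0.621 to 4.56 CPM in A549. Of the 5 alveolar type II markers only SFTPB had a row, at 0.99 to 2.73 CPM in A549 and 2.13 to 5.27 CPM in Huh7. Epithelial markers summed to 6550 to 7800 CPM in A549 and to 2440 to 5750 CPM in Huh7. Among the Huh7 libraries, P. umbellatus replicate 2 lay farthest from the other two of its group, with a median distance of 0.325 log2 units over genes. The other P. umbellatus libraries lay at 0.194 and 0.244, and the remaining Huh7 libraries at 0.0794 to 0.116. Called changes that rest on this library are given with and without it.

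RefSeq promoter windows of 300 bases (build GRCh38.p14, 250 bases before to 50 after a start site) were found for 7 of the 8 genes, in 13 windows. For 3 genes, the longest stretch of the 250 bases before the start without an annotated exon base on either strand is shown. These are CASP2 and PARP1, which fell with every extract in A549, and APAF1, which passed the test with none. Promoters of genes that did and did not pass can thus be read side by side. Capitals mark matches on either strand to CCAAT or GGGCGG (a GC box), which occur in 34.6% and 44.9% of all 34943 windows and may overlap each other. The cell cycle element TTTGAA (15.2% of all windows), the AP-1 site TGANTCA (7.72%) and 4 spellings of an E2F site, TTTCCCGC, TTTGGCGC, TTTCGCGC and TTTGCCGC (3.3%), were searched in the same way and are not in the 3 stretches. Another window of CASP2, not shown, holds 1 match to TTTGAA.
CASP2, chr7:143288101-143288214, plus strand: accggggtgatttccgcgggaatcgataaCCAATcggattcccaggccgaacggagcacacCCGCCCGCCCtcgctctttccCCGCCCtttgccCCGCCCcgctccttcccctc
PARP1, chr1:226408155-226408343, minus strand: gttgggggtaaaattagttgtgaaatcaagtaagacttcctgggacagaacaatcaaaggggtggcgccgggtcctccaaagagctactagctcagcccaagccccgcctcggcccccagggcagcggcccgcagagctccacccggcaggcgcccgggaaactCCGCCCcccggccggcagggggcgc
APAF1, chr12:98645114-98645289, plus strand: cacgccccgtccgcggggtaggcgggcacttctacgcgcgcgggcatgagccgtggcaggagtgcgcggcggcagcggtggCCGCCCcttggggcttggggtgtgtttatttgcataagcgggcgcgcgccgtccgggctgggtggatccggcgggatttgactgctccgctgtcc
The CASP2 stretch held a CCAAT box and overlapping and separate GC boxes, and the PARP1 and APAF1 stretches held 1 GC box each. Over the full windows of 300 bases around these stretches, CASP2 held 2 CCAAT and 4 GC boxes and PARP1 held 2 GC boxes. APAF1 held 1 CCAAT box there, outside the stretch shown, beside its GC box. A match is a description of the letters and does not show that a factor binds there.

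In A549, 3 of the 8 genes fell with each extract and none rose. BIRC5 fell most, to 0.40 times the control level with P. chinensis, 0.51 times with B. chinense and 0.47 times with P. umbellatus. CASP2 and PARP1 fell less, to between 0.73 and 0.83 times control. The median log2 fold change of the 8 genes ran from -0.16 to -0.08 over the 3 extracts, and that of all genes from -0.01 to 0.01. Over all genes tested in A549, P. chinensis lowered 17.1% and raised 15.8%, B. chinense lowered 15.0% and raised 13.1%, and P. umbellatus lowered 14.8% and raised 13.4%. The calls are those of edgeR's quasi-likelihood test at a Benjamini-Hochberg adjusted p below 0.05 over all genes. At an unadjusted p below 0.05 also 0 rose in edgeR, DESeq2 called 0 upward, and voom called 0 upward, with CASP8 alone reaching the unadjusted threshold with P. chinensis. The 3 comparisons share their control libraries, so the recurrence of the same genes is not independent.

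**Figure D1:**
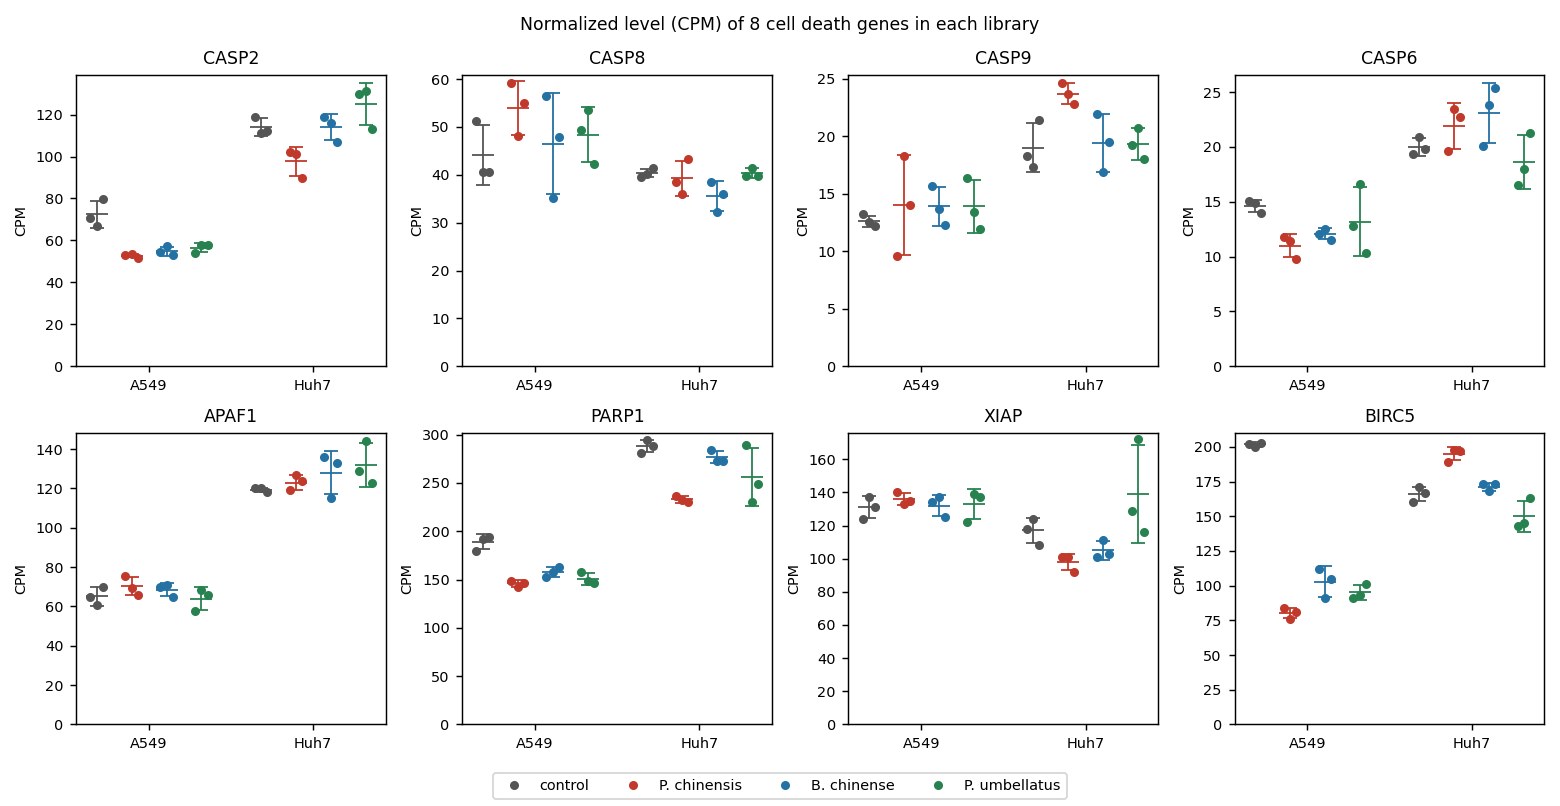
Level of each gene in CPM (linear axis from 0, normalized within each line) in the 24 libraries, with 1 point per library and the mean ± SD (n = 3) of each group. The BIRC5 controls of A549 lie at 200 to 203 CPM and its treated libraries at 76.3 to 112 CPM, while in Huh7 the BIRC5 libraries lie between 143 and 198 CPM.

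BIRC5 (ENSG00000089685, chromosome 17, 78214186 to 78225636, plus strand, GRCh38) is transcribed mainly late in the cell cycle. In A549 its level was 202, 200 and 203 CPM in the controls. It was 83.9, 76.3 and 80.8 CPM with P. chinensis, 112, 91.0 and 105 CPM with B. chinense, and 91.1, 93.5 and 101 CPM with P. umbellatus. Every treated library lay below every control, and the lowest levels were those with P. chinensis. The log2 fold change was -1.33 ± 0.07 (SE, n = 3 per group, adjusted p = 5.12e-09) with P. chinensis, -0.97 ± 0.07 (adjusted p = 1.89e-07) with B. chinense and -1.08 ± 0.07 (adjusted p = 6.31e-08) with P. umbellatus. In bulk RNA, fewer cells that express a gene and less of its RNA per cell cannot be told apart.

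The 3 proteins that share the chromosomal passenger complex with BIRC5 are the kinase AURKB, its scaffold INCENP and the subunit CDCA8 (borealin), and all 3 of their genes fell with each extract in A549. AURKB had 85.0, 82.4 and 82.4 CPM in the A549 controls against 41.9, 36.1 and 24.9 CPM with P. chinensis, a log2 fold change of -1.28 ± 0.14 (adjusted p = 7.74e-06). INCENP and CDCA8 changed by -1.12 ± 0.09 and -1.0 ± 0.10 with the same extract. The median log2 fold change of the 3 genes was -1.12 for P. chinensis (all genes tested, 0.01), -0.92 for B. chinense (all genes, -0.00) and -0.83 for P. umbellatus (all genes, -0.01). In Huh7 the medians were -0.36, -0.24 and -0.35 in the same order, beside 0.01, -0.00 and 0.03 for all genes. CDCA8 did not fall with any extract in Huh7, at 0.02, 0.06 and 0.04 in that order. INCENP fell there with P. chinensis, by -0.38 ± 0.11 (adjusted p = 0.0358), while the change of BIRC5 was 0.23. With P. umbellatus AURKB and INCENP fell in Huh7, by -0.53 ± 0.12 (adjusted p = 0.00724) and -0.35 ± 0.12 (adjusted p = 0.035). Without P. umbellatus replicate 2 AURKB passed at -0.36 ± 0.06 (adjusted p = 0.00134) with P. umbellatus and INCENP did not, at -0.23 ± 0.09 (adjusted p = 0.0717). That fit also called AURKB with P. chinensis and with B. chinense (adjusted p = 0.000285 and 0.0224).

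CASP2 (ENSG00000106144, chromosome 7, 143288215 to 143307696, plus strand) had 70.8, 67.1 and 79.6 CPM in the A549 controls. It had 52.9, 53.6 and 51.8 CPM with P. chinensis, 54.3, 57.4 and 52.9 CPM with B. chinense, and 54.2, 57.8 and 57.9 CPM with P. umbellatus. All treated libraries lay below all controls. The log2 fold changes were -0.46 ± 0.07 (adjusted p = 0.000229), -0.40 ± 0.07 (adjusted p = 0.000932) and -0.36 ± 0.07 (adjusted p = 0.00183) in the same order.

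PARP1 (ENSG00000143799, chromosome 1, 226360210 to 226408154, minus strand) makes poly(ADP-ribose) at DNA breaks and is a classic substrate of the effector caspases. Its A549 controls had 180, 192 and 194 CPM. With P. chinensis it had 149, 142 and 146 CPM, with B. chinense 153, 158 and 163 CPM, and with P. umbellatus 158, 149 and 146 CPM, all below the lowest control. The log2 fold changes were -0.38 ± 0.05 (adjusted p = 3.97e-05), -0.26 ± 0.05 (adjusted p = 0.00126) and -0.32 ± 0.05 (adjusted p = 0.000207). Among the 6 relatives and partners of PARP1 in DNA break repair, PARP2, the ligase LIG3 and the scaffold XRCC1 fell with every extract in A549. Of all genes, 14.8% to 17.1% fell there, depending on the extract. PARP2 fell by 0.92, 0.86 and 0.91 on the log2 scale, and PARP3 rose with P. chinensis by 0.68 ± 0.16 (adjusted p = 0.0039). In Huh7 P. chinensis raised POLB by 0.61 and changed LIG3 by -0.19 (adjusted p = 0.0493), beside 10.5% of genes up and 10.5% down. P. umbellatus raised POLB by 0.45 and changed XRCC1 by -0.55 there, beside 19.3% and 17.8% of all genes. Without P. umbellatus replicate 2 these were 0.40 and -0.31, and both passed. None of the 6 passed there with B. chinense.

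The other initiator caspases, the effector caspase and APAF1 passed the test with no extract in A549. CASP8 (ENSG00000064012, chromosome 2, 201233443 to 201361836, plus strand), the caspase of the death receptors, had 51.3, 40.5 and 40.5 CPM in the controls and 59.1, 48.1 and 55.0 CPM with P. chinensis. These groups overlapped, and the log2 fold change was 0.30 ± 0.15 (adjusted p = 0.158). With B. chinense it was 0.08 ± 0.15 and with P. umbellatus 0.14 ± 0.15. CASP9 (ENSG00000132906, chromosome 1, 15490832 to 15526534, minus strand), the caspase of the apoptosome, had 13.2, 12.5 and 12.2 CPM in the controls and 9.60, 18.3 and 14 CPM with P. chinensis. Replicates 1 and 2 of that group thus lay on opposite sides of all controls, and the change was 0.15 ± 0.20 (adjusted p = 0.628).

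CASP6 (ENSG00000138794, chromosome 4, 109688622 to 109703583, minus strand), an effector caspase that cuts lamins, had 15.1, 14.9 and 14 CPM in the A549 controls. It had 11.8, 11.4 and 9.81 CPM with P. chinensis, 12.1, 12.5 and 11.5 CPM with B. chinense, and 12.8, 16.6 and 10.3 CPM with P. umbellatus. The first pair of treated groups lay below the controls and the last one overlapped them. The log2 fold change with P. chinensis was -0.41 ± 0.16, which missed the threshold (adjusted p = 0.0719). The opposite strand at this locus holds MCUB, which had 115 to 278 counts in the A549 libraries against 79 to 217 for CASP6, and whether the counting used strand is not given in the sources used here.

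APAF1 (ENSG00000120868, chromosome 12, 98645290 to 98735433, plus strand) had 65.0, 60.5 and 70.1 CPM in the A549 controls and 57.5 to 75.5 CPM in the treated libraries. XIAP (ENSG00000101966, chromosome X, 123859712 to 123913972, plus strand) had 124, 137 and 131 CPM in the controls and 122 to 140 CPM in the treated libraries. Both genes overlapped their controls with every extract. The estimate ± 1.96 SE ran from -0.07 to 0.17 for XIAP with P. chinensis, from -0.11 to 0.13 with B. chinense and from -0.10 to 0.14 with P. umbellatus, on the log2 scale. For APAF1 it ran from -0.06 to 0.27, from -0.09 to 0.24 and from -0.20 to 0.13. Loci of other genes overlap APAF1 (ANKS1B) and CASP8 (FLACC1) on the opposite strand, with 19 to 86 and 2 to 19 counts in A549. In Huh7 ANKS1B had 269 to 966 counts against 1003 to 2985 for APAF1, and FLACC1 had 8 to 59 against 288 to 992 for CASP8.

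**Figure D2:**
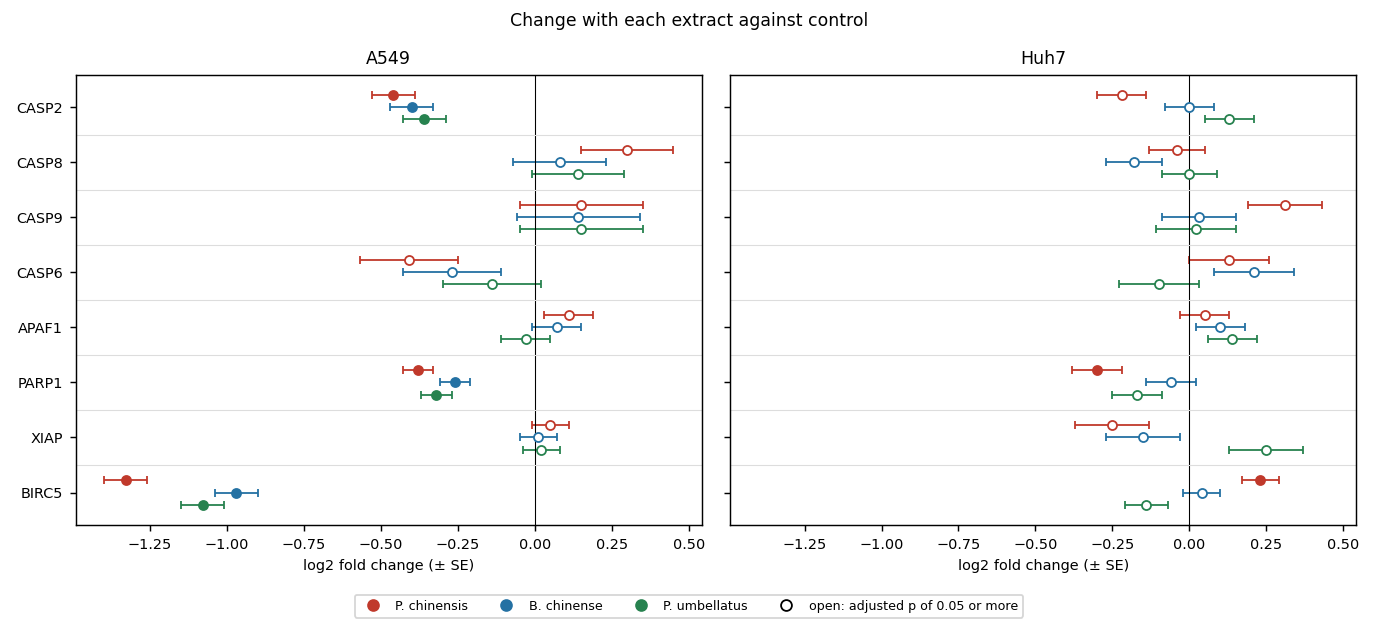
Log2 fold change ± SE of each gene with each extract against control (n = 3 libraries per group), in A549 (left) and Huh7 (right), with filled points for an adjusted p below 0.05. In A549 the filled points are BIRC5, CASP2 and PARP1 with all 3 extracts, all below 0, and in Huh7 they are PARP1 at -0.30 and BIRC5 at 0.23, both with P. chinensis.

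In Huh7, 1 of the 8 genes rose and 1 fell with P. chinensis, and none passed the test with the other two extracts. PARP1 fell to 0.81 times and BIRC5 rose to 1.17 times control with P. chinensis, beside 10.5% of all genes that rose and 10.5% that fell. With B. chinense 0.519% of all genes rose and 0.757% fell, and with P. umbellatus 19.3% rose and 17.8% fell. With B. chinense edgeR found 0 of the 8 also at an unadjusted p below 0.05, DESeq2 called 0, and voom called 0 with 1, CASP8, at the unadjusted threshold. With P. umbellatus edgeR found 2 at the unadjusted threshold, PARP1 and BIRC5, DESeq2 called both, and voom called 0.

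The PARP1 controls of Huh7 had 281, 294 and 288 CPM, and the P. chinensis libraries had 237, 232 and 230 CPM, all lower. The log2 fold change was -0.30 ± 0.08 (adjusted p = 0.0132), and without P. chinensis replicate 3 it was -0.29 ± 0.09 and just missed the threshold (adjusted p = 0.0528). PARP1 had 284, 273 and 273 CPM with B. chinense. With P. umbellatus it had 289, 230 and 249 CPM, the lowest in replicate 2, and the change was -0.17 ± 0.08 (adjusted p = 0.0993), or -0.10 ± 0.06 without that library. Leaving out P. umbellatus replicate 1 instead gave -0.26 ± 0.06, which passed the test (adjusted p = 0.00925).

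BIRC5 in Huh7 had 160, 171 and 167 CPM in the controls and 189, 198 and 197 CPM with P. chinensis. All P. chinensis libraries lay above the controls, the opposite side from A549, with a log2 fold change of 0.23 ± 0.06 (adjusted p = 0.0254). The rise did not pass the test when any 1 of the 6 libraries compared was left out, with changes of 0.20 to 0.23 and adjusted p of 0.0748 to 0.123 in edgeR. BIRC5 had 173, 168 and 173 CPM with B. chinense. With P. umbellatus it had 143, 145 and 163 CPM, of which only replicate 3 overlapped the controls, and the change was -0.14 ± 0.07 (adjusted p = 0.104). Without replicate 3 it was -0.21 ± 0.06 and passed (adjusted p = 0.0127), and without replicate 2 it was -0.11 ± 0.06 (adjusted p = 0.149).

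XIAP in Huh7 had 118, 124 and 108 CPM in the controls. It had 101, 101 and 92.2 CPM with P. chinensis, all below the controls, and 101, 111 and 103 CPM with B. chinense. With P. umbellatus it had 129, 172 and 116 CPM, where replicate 2 stood well above the others. The change with P. chinensis was -0.25 ± 0.12 (adjusted p = 0.169), and it passed the test in the fit without P. umbellatus replicate 2, at -0.25 ± 0.07 (adjusted p = 0.0109), although that library is not in the comparison. It also passed under voom, at -0.23 ± 0.06 (adjusted p = 0.00726). In the fit of the 6 libraries compared it passed at -0.24 ± 0.06 (adjusted p = 0.00653), while DESeq2 did not call it. The change with P. umbellatus was 0.25 ± 0.12 (adjusted p = 0.123), and 0.07 ± 0.08 without replicate 2.

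CASP2 in Huh7 had 119, 111 and 112 CPM in the controls and 102, 101 and 89.9 CPM with P. chinensis, all lower. The change of -0.22 ± 0.08 missed the threshold (adjusted p = 0.0667), and it passed under DESeq2 at -0.23 ± 0.08 (adjusted p = 0.0187) and without P. umbellatus replicate 2 at -0.22 ± 0.07 (adjusted p = 0.0214). CASP2 also passed under voom (adjusted p = 0.00741) and in the fit of the 6 libraries compared (adjusted p = 0.00936). It had 119, 116 and 107 CPM with B. chinense and 130, 131 and 113 CPM with P. umbellatus, both overlapping the controls. CASP9 had 18.3, 17.3 and 21.4 CPM in the controls and 24.6, 23.7 and 22.8 CPM with P. chinensis, all higher, with a change of 0.31 ± 0.12 (adjusted p = 0.0864) that passed without P. umbellatus replicate 2 (adjusted p = 0.0442). The CASP9 change also passed under voom (adjusted p = 0.00955) and in the fit of the 6 libraries compared (adjusted p = 0.0263), but not under DESeq2.

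CASP6, CASP8 and APAF1 did not pass the test with any extract in Huh7. CASP8 stayed between 32.2 and 43.3 CPM over the 12 Huh7 libraries, and CASP6 between 16.5 and 25.4 CPM. APAF1 stayed between 115 and 144 CPM. Their log2 fold changes ran from -0.18 (CASP8 with B. chinense) to 0.21 (CASP6 with B. chinense), with SEs of 0.08 to 0.13.

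The response of BIRC5 differed between the lines with each extract. Differences between the lines were tested as an interaction in 1 model of the 24 libraries, which has its own scaling and spread, so they need not equal the difference of the changes fitted in each line. In it, the change in A549 minus the change in Huh7 was -1.50 ± 0.10 (adjusted p = 3.82e-10) for P. chinensis, -0.97 ± 0.10 (adjusted p = 7.41e-07) for B. chinense and -0.86 ± 0.10 (adjusted p = 1.39e-06) for P. umbellatus. CASP2 differed for B. chinense, by -0.36 ± 0.10 (adjusted p = 0.03), and for P. umbellatus, by -0.40 ± 0.10 (adjusted p = 0.00554). Without Huh7 P. umbellatus replicate 2 the P. umbellatus differences were -0.93 ± 0.09 for BIRC5 and -0.41 ± 0.10 for CASP2, and both passed. For P. chinensis the CASP2 difference was -0.18 ± 0.10 (adjusted p = 0.255). The B. chinense difference of CASP2 lost its call in 7 of 12 fits that left out 1 library, with an adjusted p of up to 0.0966 without A549 control replicate 3. Of the 8 genes 1, 2 and 2 thus differed between the lines for P. chinensis, B. chinense and P. umbellatus, beside 19.6%, 11.6% and 34.4% of all genes tested.

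**Figure D3:**
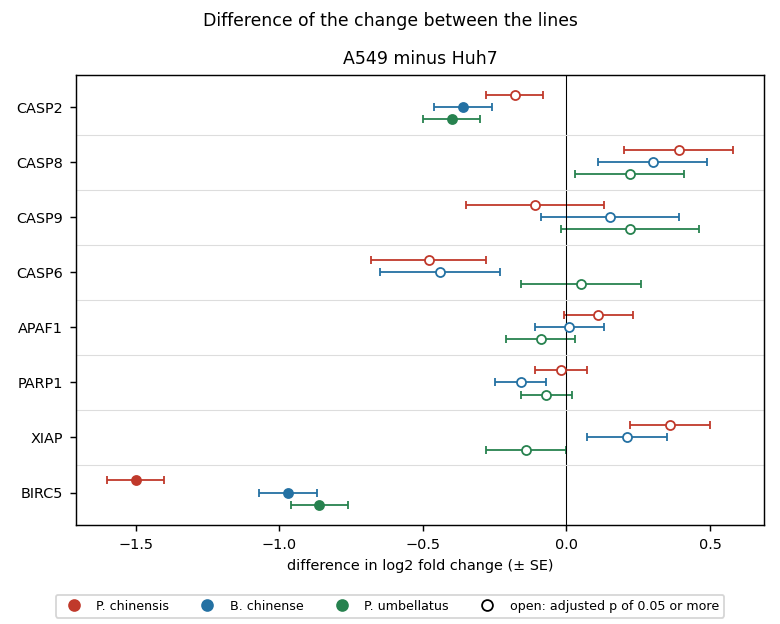
Difference of the log2 fold change between the lines (A549 minus Huh7, ± SE, 24 libraries) for each gene and extract, with filled points for an adjusted p below 0.05. BIRC5 stands apart at -1.50, -0.97 and -0.86, and CASP2 is filled at -0.36 and -0.40.

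For PARP1 with P. chinensis the difference in the model of both lines was -0.02 ± 0.09 (adjusted p = 0.91), while the fits of each line gave falls of 0.38 in A549 and 0.30 in Huh7 on the log2 scale. For CASP6 with P. chinensis the fits of each line gave -0.41 in A549 and 0.13 in Huh7, and the difference in the model of both lines, -0.48 ± 0.20, missed the threshold (adjusted p = 0.105). The differences of CASP8 and XIAP were 0.39 ± 0.19 (adjusted p = 0.162) and 0.36 ± 0.14 (adjusted p = 0.0763).

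Compared with each other, the extracts differed in few of the 8 genes in A549. With P. chinensis BIRC5 was lower than with B. chinense, by -0.36 ± 0.07 (adjusted p = 0.0277), and it was the only 1 of the 8 that passed, beside 1.45% of all genes. This call was lost under voom (adjusted p = 0.0572), in the fit of the 6 libraries compared (adjusted p = 0.105) and without B. chinense replicate 1 or 3 or P. chinensis replicate 2 or 3 (adjusted p of 0.0792 to 0.108). Between P. chinensis and P. umbellatus edgeR called 0 of 8 beside 3.01% of all genes, with BIRC5 at -0.24 ± 0.07 (adjusted p = 0.0934) the only 1 at an unadjusted p below 0.05. DESeq2 called 1, BIRC5, and voom called 0. Between B. chinense and P. umbellatus 0 of 8 passed beside 0.0513% of all genes, 0 were below 0.05 unadjusted, and DESeq2 and voom called 0.

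In Huh7, 3 of the 8 genes passed between P. chinensis and P. umbellatus, beside 35.4% of all genes. CASP2 and XIAP were lower with P. chinensis, by -0.35 ± 0.08 (adjusted p = 0.00623) and -0.50 ± 0.12 (adjusted p = 0.00808), and BIRC5 was higher, by 0.37 ± 0.07 (adjusted p = 0.00159). Without P. umbellatus replicate 2 they were -0.31, -0.32 and 0.34 and each passed, with the XIAP difference smaller by more than 1.5 times. In a fit of the 6 libraries compared, CASP2 and XIAP did not pass (adjusted p = 0.0567 and 0.0596). XIAP was also lower with B. chinense than with P. umbellatus, by -0.40 ± 0.12 (adjusted p = 0.0313), as 1 of 8 beside 27.3% of all genes. That difference was -0.22 ± 0.08 without P. umbellatus replicate 2 and did not pass (adjusted p = 0.0566). It was also lost when any 1 of the 3 B. chinense libraries was left out (adjusted p of 0.0649 to 0.111). Between P. chinensis and B. chinense edgeR called 0 of 8 beside 7.81% of all genes, with 4 at an unadjusted p below 0.05, while DESeq2 called 2 and voom called 3.

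The untreated lines differed in 6 of the 8 genes, beside 68.7% of all genes tested. On a CPM scale set over the 24 libraries, APAF1 was 66.1, 61.5 and 71.4 in A549 and 122, 122 and 120 in Huh7, or 0.55 times the Huh7 level (adjusted p = 3.84e-09). CASP2, PARP1, CASP9 and CASP6 were lower in A549 as well, at 0.64, 0.66, 0.67 and 0.73 times. BIRC5 was the only one of the 8 that was higher, with 205, 203 and 207 CPM in A549 and 163, 173 and 170 CPM in Huh7, 1.21 times (adjusted p = 0.000743). CASP8 and XIAP did not pass (adjusted p = 0.419 and 0.138), with log2 differences of 0.12 ± 0.13 and 0.17 ± 0.10. Whether reads of ANKS1B, which overlaps APAF1 and had more counts in Huh7, entered the APAF1 difference was not tested. The lines were grown as separate samples, so line and culture cannot be told apart.

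Of 42 other genes of the pathway in 7 groups, 39 were tested in each line. With P. chinensis in A549 9 of them rose and 10 fell, beside 15.8% and 17.1% of all genes tested. With B. chinense 5 rose and 9 fell, beside 13.1% and 15.0%, and with P. umbellatus 4 rose and 8 fell, beside 13.4% and 14.8%. Leaving out P. chinensis replicate 1 or control replicate 2 gave 6 that rose with P. chinensis, and leaving out B. chinense replicate 1 or control replicate 2 or 3 gave 3 that rose with B. chinense. In Huh7 P. umbellatus raised 11 and lowered 7, beside 19.3% and 17.8% of all genes tested. P. chinensis raised 6 and lowered 4 there, beside 10.5% and 10.5%, and B. chinense raised 1, beside 0.519%. The P. umbellatus counts in Huh7 were 9 and 6 without replicate 2, ran from 6 to 13 and from 3 to 9 when any 1 library was left out, and were 1 and 1 in a fit of the 6 libraries compared. The median log2 fold change of the tested list genes lay between -0.08 and 0.01 in the 6 comparisons, and that of all genes between -0.01 and 0.03. The P. chinensis counts in Huh7 ran from 3 to 8 and from 2 to 6 when 1 library was left out.

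Of the other inhibitors of apoptosis and the XIAP antagonist XAF1, 6 were tested in A549 and 5 in Huh7. In A549 2 rose with P. chinensis and 1 with each other extract, where 13.1% to 15.8% of all genes rose. In Huh7 P. umbellatus raised 4, P. chinensis 2 and B. chinense 1, beside 19.3%, 10.5% and 0.519% of all genes. BIRC6 fell with P. chinensis in Huh7. BIRC3 (cIAP2), which also acts in NF-κB signalling, rose with every extract in both lines. In A549 it had 104, 101 and 108 CPM in the controls and 306, 286 and 366 CPM with P. chinensis, a log2 fold change of 1.61 ± 0.08 (adjusted p = 2.09e-09). It rose by 0.93 ± 0.08 with B. chinense and 1.22 ± 0.08 with P. umbellatus. In Huh7 its level was far lower, at 1.66, 1.36 and 1.25 CPM in the controls and 10.7, 10.7 and 11 CPM with P. chinensis, and the changes were 2.82 ± 0.20 there, 1.75 ± 0.20 with P. umbellatus and 1.0 ± 0.20 with B. chinense. The B. chinense rise in Huh7 rests on 22 to 39 counts per treated library (adjusted p = 0.0364) and was lost without B. chinense replicate 2 or 3 or any 1 control. BIRC2 (cIAP1) rose with P. chinensis in A549, by 0.41 ± 0.09, and in Huh7 with P. chinensis and P. umbellatus, by 0.44 ± 0.12 and 0.59 ± 0.12. Without P. umbellatus replicate 2 the P. umbellatus changes in Huh7 were 1.77 for BIRC3 and 0.51 for BIRC2, and both passed.

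Of the other caspases, the inflammatory caspase CASP4 rose in A549 with each extract, by 1.05 ± 0.28, 0.81 ± 0.28 and 1.33 ± 0.28, from only 16 to 18 counts per control library, and CASP10, a relative of CASP8, rose with P. chinensis by 0.60 ± 0.12.

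CFLAR (cFLIP), which keeps CASP8 from being activated at death receptors, rose with every extract in A549. It had 191, 189 and 189 CPM in the controls against 299, 276 and 293 CPM with P. chinensis, a change of 0.61 ± 0.05 (adjusted p = 3.05e-07). It changed by 0.36 ± 0.05 with B. chinense and 0.43 ± 0.05 with P. umbellatus. In Huh7 it rose only with P. umbellatus by its own test, by 0.25 ± 0.08 (0.26 without P. umbellatus replicate 2, which also passed), and the difference between the lines was 0.66 ± 0.09 (adjusted p = 8.35e-06) for P. chinensis. PIDD1, which activates CASP2 as part of the PIDDosome, rose in A549 with P. chinensis and B. chinense, by 0.66 ± 0.21 and 0.74 ± 0.21. CYCS, which encodes cytochrome c, fell in A549 with each extract, by 0.28, 0.32 and 0.31 on the log2 scale. In Huh7 it was called higher with P. umbellatus, by 0.38 ± 0.12 (adjusted p = 0.0301), but not without P. umbellatus replicate 2, at 0.20 ± 0.08 (adjusted p = 0.069). The fit without that library called CYCS higher with P. chinensis, at 0.23 ± 0.07 (adjusted p = 0.0214), where the fit with it did not (adjusted p = 0.213).

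Of 8 caspase substrates of the execution phase, 1 rose and 3 fell with P. chinensis in A549, beside 15.8% and 17.1% of all genes. With P. umbellatus in Huh7, 3 of these substrates rose and 3 fell, beside 19.3% and 17.8% of all genes. The nuclear lamina protein LMNB1 had the largest fall of them in A549, where it had 141, 145 and 141 CPM in the controls and 63.0, 52.0 and 59.0 CPM with P. chinensis, a change of -1.29 ± 0.07 (adjusted p = 7.26e-09). It changed by -1.01 ± 0.07 and -0.94 ± 0.07 with B. chinense and P. umbellatus, and in Huh7 by -0.39 ± 0.09 with P. chinensis and -0.42 ± 0.09 with P. umbellatus. LMNA rose with P. chinensis in both lines, by 0.20 ± 0.06 and 0.41 ± 0.13, and was called lower with P. umbellatus in Huh7, at -0.35 (adjusted p = 0.0495). Without P. umbellatus replicate 2, LMNA was at -0.18 ± 0.07 and did not pass (adjusted p = 0.0631), while LMNB1 was at -0.38 and passed.

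**Figure D4:**
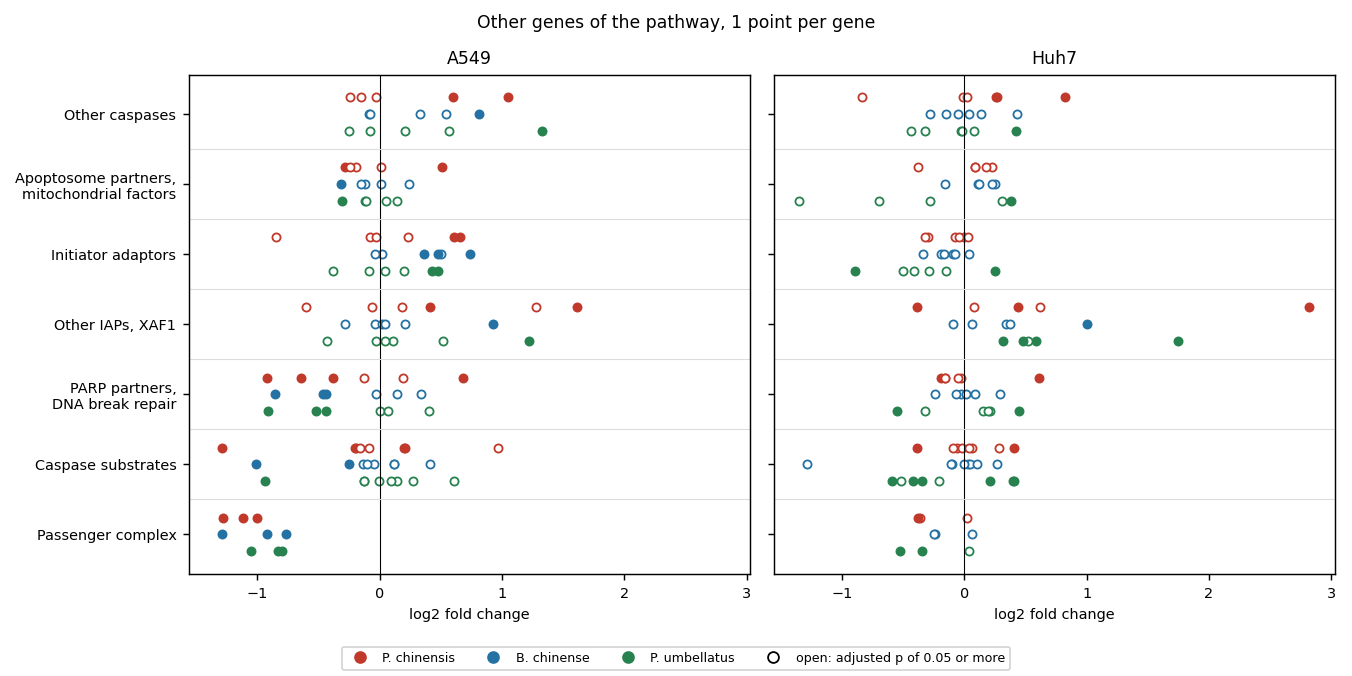
Log2 fold change of the tested genes of each pathway group with each extract against control in A549 (left) and Huh7 (right), 1 point per gene, filled for an adjusted p below 0.05. The points of the passenger complex in A549 are all filled and lie between -1.29 and -0.77, and the farthest point to the right is BIRC3 in Huh7 with P. chinensis at 2.82.

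The genes whose level followed each of the 8 most closely were found by Pearson's r of log2 CPM over the 24 libraries, with each gene centred on the mean of each line. For BIRC5 they were the mitotic genes PLK1 (r = 0.954) and CDC20 (r = 0.945) and the tubulin regulator STMN1 (r = 0.936). For CASP2 they were SP1 (r = 0.925), NUP155 and DLAT (both r = 0.914), for PARP1 they were CMIP (r = 0.937), TRAP1 (r = 0.931) and PFAS (r = 0.921), and for XIAP they were BBX (r = 0.901), BLOC1S6 (r = 0.898) and MAPK6 (r = 0.894). The best partner of CASP6, CASP8, CASP9 and APAF1 reached only r = 0.709 (CNOT10), 0.740 (ANKRD22), 0.690 (RCAN1) and 0.750 (ZBTB34). Among the 8 genes themselves the highest r was 0.67, between CASP2 and PARP1. The libraries share their controls and their depth, so these values describe likeness in these 24 libraries. They were not recomputed without Huh7 P. umbellatus replicate 2, where XIAP was highest at 172 CPM.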

How the data were processed

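Total RNA was sequenced from 24 libraries of 2 lines, 3 per group, after removal of ribosomal RNA with a stranded kit. Per the labels, the authors used FastQC and kallisto with GRCh38.p13, and per the methods they dropped genes that are not protein-coding or whose count averaged 5 or less. The estimated counts deposited by the authors are whole numbers, 1 row per gene, not normalized for depth. Summing of transcripts to genes, rounding and use of strand are not given in the sources used here, so reads of overlapping or similar genes could be shared between them.

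Here, 14584 of 14585 identifiers matched a symbol and 1 was left out. Groups and replicate numbers came from the sample labels. Genes with a mean count above 5 over the 12 libraries of a line (13633 in A549, 13875 in Huh7) were normalized by TMM and fitted by edgeR 4.0.16 (R 4.3.3) in 1 quasi-likelihood model per line with a prior count of 2, and the difference between lines in 1 model of 24 libraries over 12924 genes. Tests were two-sided, with Benjamini-Hochberg adjustment over all genes and a threshold of 0.05. CPM values are TMM-scaled, except those of the cell type markers, which are scaled to the library total alone. The distance of a library is the median over genes of its difference from the mean of the other two, on log2(CPM + 1).

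The labels do not say whether replicates are separate cultures, so p-values measure only the spread between these samples. Library totals of 6803648 to 24345364 set the precision, and errors are from replicates. Replicate numbers did not pair the samples, with correlations of deviations of -0.0712 to 0.0696 in A549 and -0.03 to 0.0847 in Huh7. Alternatives were DESeq2 1.42.0, voom with quality weights (limma 3.58.1), RLE normalization, no filter, only the 6 libraries compared, a replicate block and leaving out 1 library. Leaving out libraries other than Huh7 P. umbellatus replicate 2 for direct, between-line and control comparisons, and RLE, no filter, voom and 6 libraries for direct comparisons, were chosen after seeing the data. The edgeR fit was tested on simulated data. The 8 genes, the pathway lists and the rules were chosen with earlier results of these data known. The genes named were the 8, the list genes that passed with any extract (at most 6 per list) and the 3 most alike per gene. Results for some genes of the lists are not reported here.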

Additional observations from a re-analysis of the deposited data

Results flagged for a closer look

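A test of the difference between the lines (edgeR's quasi-likelihood interaction, n = 3 libraries per group) passed for 5 responses. Of the 8 genes 1, 2 and 2 passed for P. chinensis, B. chinense and P. umbellatus, beside 19.6%, 11.6% and 34.4% of all genes tested. BIRC5 responded differently in A549 and Huh7 to P. chinensis (difference in log2 fold change -1.50 ± 0.10, SE), B. chinense (-0.97 ± 0.10) and P. umbellatus (-0.86 ± 0.10). In A549 all 9 treated libraries lay below the controls, and in Huh7 the P. chinensis libraries lay above them. That rise in Huh7 lost its call when any 1 library compared was left out (adjusted p of 0.0748 to 0.123 in edgeR). CASP2 responded differently to B. chinense (-0.36 ± 0.10, adjusted p = 0.03) and P. umbellatus (-0.40 ± 0.10, adjusted p = 0.00554), with falls in A549 and changes of -0.00 ± 0.08 and 0.13 ± 0.08 in Huh7 that did not pass. The B. chinense difference of CASP2 lost its call in several fits that left out 1 library, with an adjusted p of up to 0.0966 without A549 control replicate 3.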

How the results depend on the processing

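Of 27 called values, 7 lost their call in at least 1 alternative and none reversed in 312 recomputations, and the falls of BIRC5, CASP2 and PARP1 with each extract in A549 lost no call. Another scaling moved the median of all genes by at most 0.037 log2 units. Where counts of called genes moved, the cause was not tested. For P. chinensis in Huh7, 2 of 8 rose under voom and with the 6 libraries compared, and 2 fell under DESeq2, RLE and the replicate block and 3 under voom and with the 6 libraries. Leaving out 1 library gave 0 to 2 that rose and 0 to 3 that fell, both counts at their highest without P. umbellatus replicate 2. For P. umbellatus in Huh7, 2 fell under DESeq2, and leaving out 1 library gave 0 to 1 that rose and 0 to 1 that fell.

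Between extracts in A549, P. chinensis against B. chinense gave 0 under voom and with the 6 libraries and 0 to 1 without 1 library, and P. chinensis against P. umbellatus gave 1 under DESeq2. In Huh7, P. chinensis against B. chinense gave 2 under DESeq2, 3 under voom and with the 6 libraries, and 0 to 3 without 1 library. P. chinensis against P. umbellatus gave 1 with the 6 libraries. B. chinense against P. umbellatus gave 2 under DESeq2, RLE and voom, 0 with the 6 libraries and 0 to 3 without 1 library. For the difference between lines, P. chinensis gave 2 under the replicate block and B. chinense 1 to 2 without 1 library. The replicate numbers did not pair the samples, and the replicate block changed the call of 1 single value against control, CASP2 with P. chinensis in Huh7 at -0.23 (adjusted p = 0.0352).

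None of the values that changed sign had passed the test. CASP9 with P. umbellatus in Huh7 was -0.01 under DESeq2 and RLE and -0.02 under voom and with the 6 libraries. Leaving out 1 library turned CASP9 with P. chinensis in A549 (-0.09 to 0.35), CASP8 with B. chinense (-0.09 to 0.25), XIAP with B. chinense (-0.02 to 0.05) and with P. umbellatus (-0.02 to 0.08), CASP6 with P. umbellatus (-0.32 to 0.00) and APAF1 with P. umbellatus (-0.09 to 0.05). In Huh7 it turned CASP2 (-0.04 to 0.04) and CASP9 (-0.06 to 0.12) with B. chinense, and CASP8 (-0.03 to 0.02) and CASP9 (-0.08 to 0.11) with P. umbellatus.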
